A study of Homo sapiens with 3 samples.

Results

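The 10 genes described here encode subunits of the SWI/SNF (BAF and PBAF) chromatin remodelling complexes. They are ARID1A, ARID1B, ARID2, SMARCA2, SMARCA4, SMARCB1, SMARCC1, SMARCC2, SMARCE1 and PBRM1, and they were taken by symbol with every RefSeq transcript row that carries one of these names. All 10 were found, in 25 of the 29156 rows and among 18877 symbols. The tested cells were A2780 cells expressing exogenous miR-181a (2 libraries, called pool 1 and pool 2), and the comparison cells were A2780 cells with the empty pBABE vector (1 library). A2780 is a human line from an undifferentiated ovarian tumour, and all 3 libraries come from this line. Design notes name the miR-181a cells clones, while the extraction protocol names them polyclonal pools, and nothing says how far they are independent cultures, so a p-value here reflects how far apart those pools are, and part of that distance may be technical. The values are the authors' median coverage over windows of 50 bp along a transcript, so they are already per length and can be set side by side between genes. The deposited values include no read counts, the depth of each library is unknown, and a row listed at 0 may still have reads.

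SWI/SNF complexes use the energy of ATP to slide or eject nucleosomes and so open promoters and enhancers. Each complex has 1 motor, SMARCA4 (BRG1) or SMARCA2 (BRM), which in the BAF and PBAF forms is set on a core of SMARCC1, SMARCC2, SMARCB1 and SMARCE1. ARID1A or ARID1B marks the BAF form, and ARID2 with PBRM1 marks the PBAF form. ARID1A is among the genes most often inactivated in endometrioid and clear cell ovarian carcinoma, and A2780 is described as an ARID1A-mutant line, which RNA coverage of a whole transcript does not report on.

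The exogenous microRNA is shown first, because its seed fixes which letters count as a match in the members. The mature strand from RefSeq (GRCh38.p14, identical for the MIR181A1 precursor on chromosome 1 and the MIR181A2 precursor on chromosome 9) has 23 bases, with the seed, bases 2 to 8, in capitals. In 3 prime UTRs of the annotated canonical transcripts on GRCh37, the same assembly as the authors' hg19, the complement of the seed, TGAATGT, was searched on the sense strand. It was found once in each of 3 of the 10 members, ARID2, SMARCC2 and PBRM1, which are printed with the match in capitals, 5′ to 3′ on the strand of the transcript.
hsa-miR-181a-5p: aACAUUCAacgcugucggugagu
ARID2, chr12:46299612-46299640, plus strand: attctatgcagtggaTGAATGTtctttaa
SMARCC2, chr12:56556788-56556816, minus strand: tgattcctttccctcTGAATGTcagtttt
PBRM1, chr3:52579528-52579556, minus strand: tgatgattttgagctTGAATGTtttcata

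None of the 3 matches was extended to the 8-mer TGAATGTA, and the other match searched, GAATGTA (which overlaps the 8-mer), was found in none of the 10 outside it. Of 12324 tested genes with such a UTR, 20.7% hold TGAATGT, 6.7% the 8-mer and 26.3% any of these matches. ARID1A (chromosome 1, 27019727 to 27108595, protein coding) has none in a 3 prime UTR of 1348 bases. A match is a description of letters in these windows and not a site shown to be used. The 3 members that hold one did not share a direction, since ARID2 stood lower and SMARCC2 and PBRM1 higher in the pools, as the values below show.

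Across the 3 libraries as a whole, coverage over the 28848 rows with a vector value summed to 907092 in pool 1, 719263 in pool 2 and 798228 in the vector library, and 32.3%, 32.2% and 12.8% of rows were listed at 0. Of 8822 rows at 0 in both pools, 62.9% were above 0 in the vector library, and the median vector value of the 8822 was 1.15. The vector library therefore stands apart, and it is the sole control, so no comparison with the pools can be given without it. SMAD7, a reported miR-181a target, had a coverage of 1.87 and 1.56 in the pools, against 58.0 in the vector library. Among 10 ovarian and epithelial markers 8 were at 0 in both pools. Of these, CDH1, WT1 and KRT7 were at 0 in the vector library too, while EPCAM, PAX8, ESR1, KRT19 and MUC16 were above 0 there, and the summed coverage of the list was 15.8 and 15.4 in the pools, against 234 in the vector library. Among 9 markers of other cell types 4 were at 0 in both pools (PTPRC, CD3E, VWF and KDR), and the list summed to 88.0 and 71.7 in the pools, against 300 in the vector library. COL1A2, with 83.8 and 69.0 in the pools, against 47.1 in the vector library, made up most of the pool sums, and PDGFRB, with 4.19 and 1.92 in the pools, against 1.08 in the vector library, was also higher in both pools. Of 3 mesenchymal markers, VIM had 2328 and 2007 in the pools, against 1173 in the vector library, CDH2 had 51.5 and 39.7 in the pools, against 7.02 in the vector library, and FN1 was at 0 in both pools, against 2.84 in the vector library. The part of these marker differences in the results below was not tested.

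No SWI/SNF member passed the test between miR-181a and vector cells. By limma on log2(coverage + 1), with the Benjamini-Hochberg adjustment over 12552 genes, 0 of 9 tested members passed an adjusted p of 0.05, against 22.7% of all tested genes (1.00% higher and 21.7% lower in the pools). At an unadjusted p of 0.05, 1 member passed, ARID1B, against 33.2% of all tested genes. With a filter on the pools alone, chosen after seeing the data, 0 of 8 tested members passed an adjusted p of 0.05. Of the 9477 genes tested under that filter, 215 rose and 773 fell. Only the difference between the pools informs the error of the test (1 residual degree of freedom), and a value past or short of it does not show that a gene acts alike in both conditions. No scaling between libraries was applied in this fit, so an offset shared by most genes enters that error. The median ratio of pool 2 to pool 1 was 0.78 over the 7223 genes with a pool mean above 10. In the row used for each gene, 6 of the 9 were higher in both pools (44.6% of all tested genes), 2 were lower in both (41.8%), and SMARCA4 had the vector value between the pools. Among genes with a pool mean above 10, 62.9% were higher and 19.4% lower in both, and above 50 these shares were 77.5% and 7.53%. Counted over all 25 rows, 15 were higher in both pools (41.7% of all rows above 0 in some library), 4 were lower in both (45.7%), and 6, all of SMARCA4, lay between. Of the 9 tested members none differed from the vector by 1 log2 unit or more in the same direction in both pools, which 2.53% of all tested genes did upward and 27.3% downward. At 0.5 log2 units or more, 2 of these 9, SMARCC2 and PBRM1, were higher in both pools (17.7% of all tested genes) and 0 were lower (32.6%). SMARCA2, at 0 in both pools, was left out of these counts by the filter on low coverage. The median log2 fold of the 9 was 0.43, beside 0.07 for all tested genes. For the 7223 genes with a pool mean above 10 it was 0.36, and for the 2124 above 50 it was 0.47. The median of the members thus lay between the medians of these 2 classes. Both classes were set by pool coverage, the second lies within the first, and ARID1B is in neither. The count depends on the scale set between libraries: 7 of the 9 members passed with library medians set equal (80.1% of all tested genes), 5 with quantile normalization (71.5%) and 3 with the shift by genes above 50 (51.2%).

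**Figure D1:**
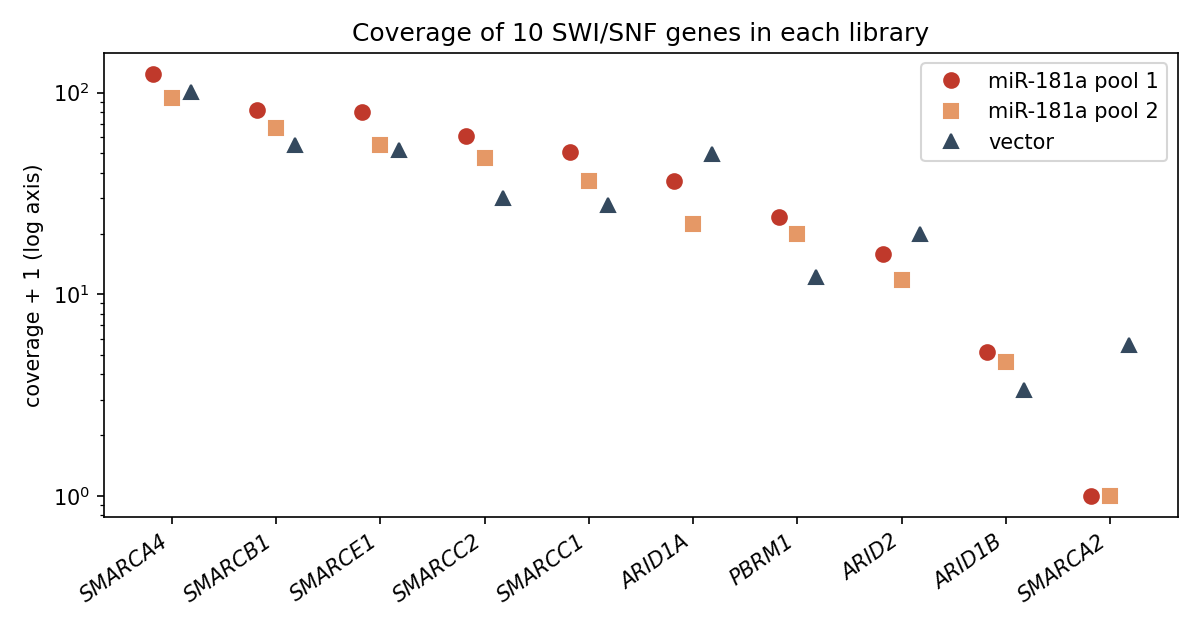
Coverage plus 1 on a log axis of each gene in miR-181a pool 1 (circles), miR-181a pool 2 (squares) and the vector library (triangles), in the row with the highest mean, with genes ordered by their pool mean. SMARCA4 is highest in every library, SMARCA2 is at 0 in both pools and at 4.62 in the vector library, and the triangles of ARID1A and ARID2 lie above both pools.

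The motor subunits were far apart in level. SMARCA4, the BRG1 ATPase (chromosome 19, 11071608 to 11190102), had a coverage of 123 in pool 1 and 92.8 in pool 2, against 99.9 in the vector library, so the vector value lay between the pools. Its pool mean of 108 ± 21.1 (SD, n = 2) exceeded that of 93.2% of tested genes, and the log2 fold was 0.09 (SE 0.28, limma adjusted p = 0.833). In 6 of its 7 rows the vector value lay between the pools, and in NM_001128847 both pools, at 123 and 92.8, were above the vector value of 88.1. SMARCA2, the BRM ATPase (chromosome 9, 1980290 to 2193624), was listed at 0 in both pools in both of its rows, against 4.62 (NM_003070) and 1.17 (NM_139045) in the vector library. A vector value at least as high was found in 29.4% and 49.7% of all rows at 0 in both pools. SMARCA2 had a mean of 1.54 over the 3 libraries, under the minimum of 2.44 for testing, and no fold is given against a group at 0. SMARCA4 thus held 100% of the summed motor coverage in each pool and 95.6% in the vector library. A bulk value cannot tell fewer cells with a transcript from less of it per cell.

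The core subunits stood higher in both pools on the deposited scale, each by less than the test could call. With the shift by genes above 50 the log2 folds were 0.46 for SMARCC2, 0.25 for SMARCC1, 0.049 for SMARCB1 and -0.027 for SMARCE1. Of these core subunits, SMARCC2 alone passed limma with the shift. SMARCC2 (BAF170, chromosome 12, 56556143 to 56583351), a scaffold subunit, had 60.1 and 46.3 in the pools, against 29.0 in the vector library, and the groups did not overlap. Its log2 fold was 0.84 (SE 0.28, limma adjusted p = 0.205), and its 3 rows gave 1.03 to 1.08 in pool 1 and 0.66 to 0.69 in pool 2. SMARCC1 (BAF155, chromosome 3, 47626759 to 47823596), its paralog in the scaffold, had 49.7 and 35.3 in the pools, against 26.8 in the vector library (log2 fold 0.63, SE 0.34, limma adjusted p = 0.327). SMARCC1 made up 45.2% and 43.3% of the summed coverage of the SMARCC pair in the pools, against 48.0% in the vector library. This share does not depend on the scale between libraries, and the vector value lay outside the pools.

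SMARCB1 (SNF5, chromosome 22, 24129118 to 24180196), the subunit lost in rhabdoid tumours, had 80.8 and 65.5 in the pools, against 53.8 in the vector library. SMARCE1 (BAF57, chromosome 17, 38781214 to 38804906), an HMG-box subunit, had 79.6 and 54.0 in the pools, against 51.1 in the vector library. The vector value was the lowest of the 3 for both genes, but pool 2 of SMARCE1 exceeded it by only 0.08 on the log2 scale. The log2 folds were 0.43 for SMARCB1 (SE 0.24, limma adjusted p = 0.341) and 0.35 for SMARCE1 (SE 0.36, limma adjusted p = 0.544).

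The subunits that set the PBAF form went in different directions. PBRM1 (BAF180, chromosome 3, 52579368 to 52719933), a protein with several bromodomains, had 23.1 and 18.9 in the pools, against 11.1 in the vector library. Its 3 rows, of which 2 hold the same values, gave log2 folds of 0.98 to 0.99 in pool 1 and 0.69 to 0.71 in pool 2, and the log2 fold of the gene was the highest among the members at 0.85 (SE 0.31, limma adjusted p = 0.221). ARID2 (BAF200, chromosome 12, 46123489 to 46301823), the ARID subunit of PBAF, had 14.7 and 10.7 in the pools, against 19.0 in the vector library. Both pools lay below the vector value, with a log2 fold that came to -0.56 (SE 0.37, limma adjusted p = 0.389), and ARID2 has a single row in the table.

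ARID1A, the BAF subunit that is often lost in ovarian carcinoma, was lower or higher in the miR-181a pools depending on which of its 2 RefSeq rows was read. Row NM_139135 had 35.6 and 21.2 in the pools, against 48.6 in the vector library, which places both pools below the vector. Row NM_006015 had 36.3 and 21.2 in the pools, against 16.6 in the vector library, which places both pools above it. The rows differed by a factor of 1.02 in pool 1, were equal in pool 2 and differed by a factor of 2.92 in the vector library, so the sign of the comparison was set by the vector value alone. By the row with the highest mean, NM_139135, the log2 fold was -0.80 (SE 0.46, limma adjusted p = 0.351), and by NM_006015 it was 0.71, and neither passed. With each pool shifted by the median log2 fold of genes above 50, row NM_139135 passed downward at -1.18, the only pass among 11 alternatives with a test. The GRCh37 annotation used here holds 2 ARID1A models with a consensus coding sequence, of 6855 and 6204 coding bases, which differ by a single stretch of 651 bases in exon 18 (27100820 to 27101470). All 6268 exonic bases of the shorter model lie in the longer one. The RefSeq accessions were not paired with these models here.

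**Figure D2:**
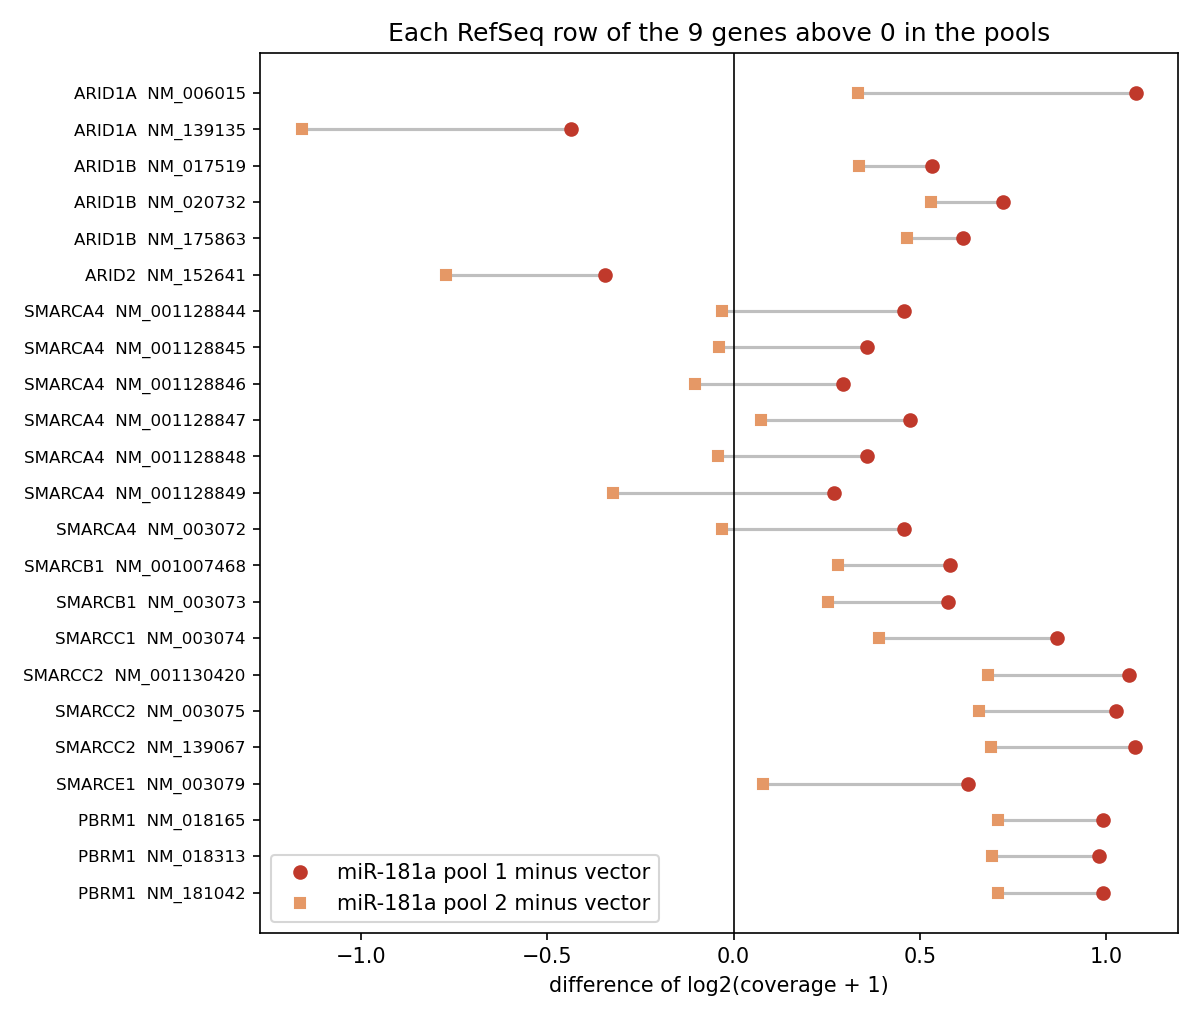
Difference of log2(coverage + 1), pool minus vector, for each of the 23 RefSeq rows of the 9 members above 0 in the pools, with miR-181a pool 1 as circles and pool 2 as squares joined by a line. The ARID1A rows lie on opposite sides of 0, at 1.08 and 0.33 for NM_006015 and at -0.44 and -1.16 for NM_139135, while the rows of ARID1B, SMARCB1, SMARCC2 and PBRM1 each stay on 1 side.

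ARID1B (chromosome 6, 157097154 to 157531913), the paralog that can take the place of ARID1A in BAF, had the lowest level of the tested members. Row NM_175863 had 4.14 and 3.63 in the pools, against 2.36 in the vector library, and both pools were higher in all 3 rows. The log2 fold was 0.54 (SE 0.09, limma adjusted p = 0.0846), the smallest p among the members, and the pools differed from each other by a factor of 0.88 in that row. Its pool mean of 3.89 ± 0.36 (SD, n = 2) exceeded that of 24.2% of tested genes.

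Among the ARID subunits, the share of each within a library turned on the same vector row. With NM_139135, ARID1A made up 65.4% and 59.7% of the summed coverage of ARID1A, ARID1B and ARID2 in the pools, against 69.5% in the vector library. With NM_006015 it made up 65.8% and 59.7% in the pools, against 43.8% in the vector library, where ARID2 then made up 50.0%. The share of ARID1B was 7.6% and 10.2% in the pools, against 3.37% in the vector library with NM_139135, and 7.51% and 10.2% in the pools, against 6.2% with NM_006015. ARID1B was thus the smallest share in each library under both rows, and its vector share was below both pools under both.

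**Figure D3:**
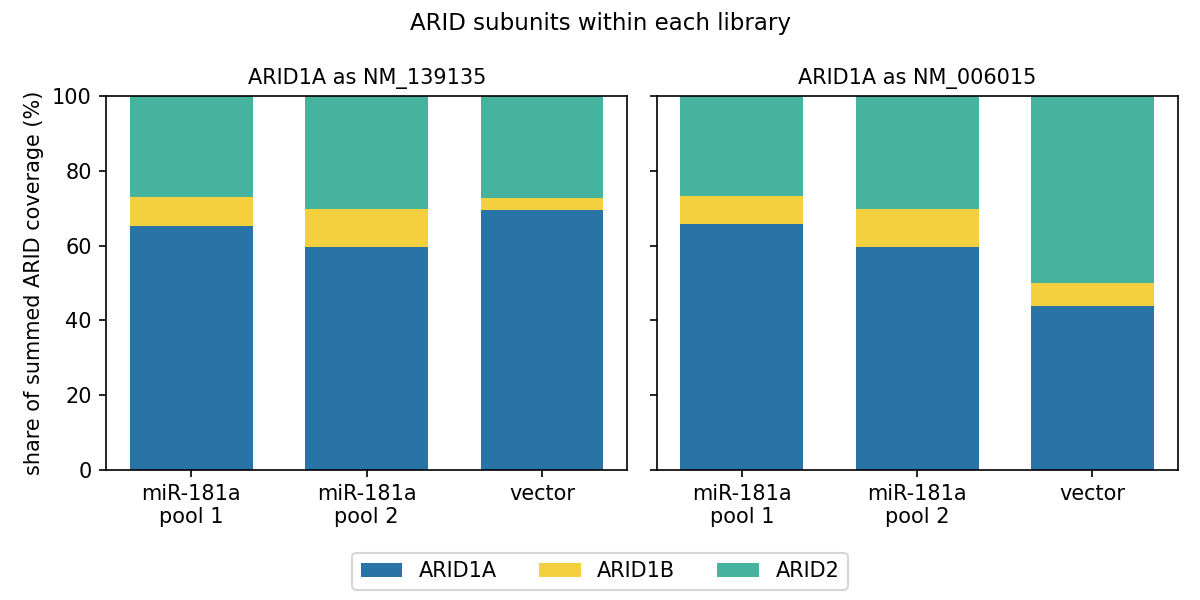
Stacked bars give the percent of summed ARID1A, ARID1B and ARID2 coverage held by each gene in miR-181a pool 1, pool 2 and the vector library, with ARID1A read from NM_139135 (left panel) or NM_006015 (right panel). The bars of the pools hardly differ between panels, and the ARID1A share of the vector library is 69.5% on the left and 43.8% on the right.

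The disagreement between rows was looked for in the other members and in the whole table. Within each library, the highest row of ARID1B, SMARCA4, SMARCB1, SMARCC2 and PBRM1 exceeded the lowest by factors of 1.00 to 1.06 in pool 1, 1.02 to 1.19 in pool 2 and 1.00 to 1.21 in the vector library. The rows of SMARCA2, at 0 in both pools, differed by a factor of 3.94 in the vector library, at low values of 4.62 and 1.17. Over the whole table, 2986 pairs of rows of the same gene with a mean coverage above 10 were alike to within 5% in both pools, and 8.91% of these pairs, in 179 of 1404 genes, differed in the vector library by at least the factor seen in ARID1A. Of 1232 pairs alike in pool 2 and the vector library, 0 differed by that factor in pool 1, and of 1301 pairs alike in pool 1 and the vector library, 0 did so in pool 2. ARID1A therefore shares this behaviour with other genes, and at this factor it was found in the vector library alone among the 3. The pools share a condition and the vector library is the only one of its own. A trait of the library and a trait of the condition therefore cannot be told apart by these counts.

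**Figure D4:**
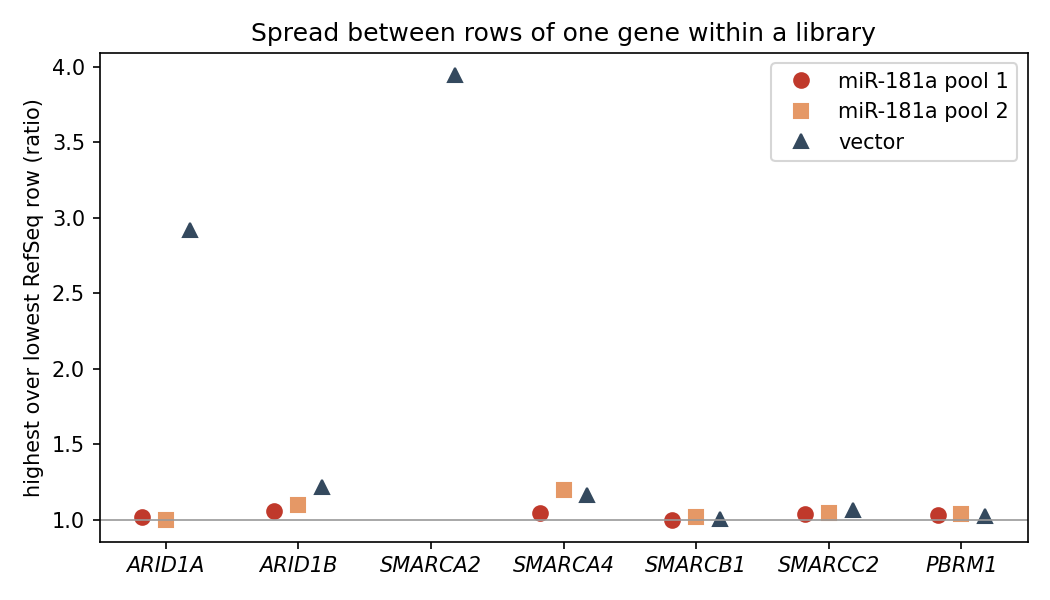
Ratio of the highest to the lowest RefSeq row of a gene within miR-181a pool 1 (circles), pool 2 (squares) and the vector library (triangles), for the 7 members with 2 or more distinct rows. SMARCA2 has a vector point alone, at 3.94, since both of its rows are at 0 in the pools, and the vector point of ARID1A lies at 2.92, while the other 17 points range from 1.00 to 1.21.

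The order of the members by level was the same in both pools, SMARCA4, SMARCB1, SMARCE1, SMARCC2, SMARCC1, ARID1A, PBRM1, ARID2, ARID1B and SMARCA2 from high to low. Between neighbours in this order, the values of the 2 pools did not overlap from SMARCA4 to SMARCB1, from PBRM1 to ARID2, from ARID2 to ARID1B and from ARID1B to SMARCA2, and overlapped for the others, although within each pool every gene stood above the next. In the vector library ARID1A stood at rank 4 by NM_139135, above SMARCC2 and SMARCC1, ARID2 stood above PBRM1, and SMARCA2 above ARID1B. By the other row, ARID1A (16.6) stood below SMARCC2, SMARCC1 and ARID2, and SMARCA2 (1.17) below ARID1B. All 9 members above 0 were lower in pool 2 than in pool 1, by ratios of 0.60 (ARID1A) to 0.88 (ARID1B) with a median of 0.76, beside a median ratio of 0.78 over the 7223 genes with a pool mean above 10.

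The genes nearest to ARID1A in pattern, by Euclidean distance of centred log2 values over the 3 libraries among 4368 genes of similar coverage, were C14orf153, MYEOV2 and MRPL32, at distances of 0.05 each. C14orf153 had 19.8 and 12.1 in the pools, against 27.0 in the vector library. With 3 libraries and row NM_139135 for ARID1A, this likeness rests on a single control value.

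Among the other 21 SWI/SNF subunits, 15 were tested, of which 2 fell and none rose, beside 21.7% and 1.00% of all tested genes. PHF10 and BCL11A had no vector value, and 6 of the 15 were higher and 6 lower in both pools. Their median log2 fold was 0.17. DPF1, a PHD-finger subunit of neuronal BAF, had 1.91 and 2.94 in the pools, against 43.4 in the vector library, in row NM_004647 (log2 fold -3.71, SE 0.31, limma adjusted p = 0.0242). Its other rows had vector values of 6.62 and 8.07, and when the row was chosen by the pools the log2 fold was -1.01 and did not pass, and over all alternatives with a test it passed in 8 of 11. KIAA0240 (now BICRAL), a subunit of the non-canonical form of the complex, had 3.43 and 3.83 in the pools, against 13.1 in the vector library in its only row (log2 fold -1.60, SE 0.14, limma adjusted p = 0.0273). It passed in 9 of 10 alternatives with a test, the exception being a pseudocount of 0.1. DPF1 and KIAA0240 were both dropped by a filter on the pools alone, and KIAA0240 also by the filter at the median. These settings are absent from the tallies of the genes they dropped.

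SS18L1, the CREST subunit of neuronal BAF, had 15.7 and 8.83 in the pools, against 131 in the vector library (log2 fold -3.36, SE 0.49), and did not pass (limma adjusted p = 0.0658), but passed in 6 of 12 alternatives with a test. BCL7A had 14.2 and 9.95 in the pools, against 30.1 in the vector library, in row NM_020993, and 14.2 and 10.7 in the pools, against 9.98 in the vector library, in row NM_001024808. The vector value thus turned the direction for BCL7A as it did for ARID1A. In row NM_020993 BCL7A did not pass (log2 fold -1.27, SE 0.38, limma adjusted p = 0.185). It passed in 4 of 12 alternatives with a test. With the filter on the pools alone, 2 other subunits fell, beside 773 of all 9477 tested genes. They were SS18L1 (limma adjusted p = 2.8e-11) and BCL7A (limma adjusted p = 0.0453), and not DPF1 or KIAA0240, which that filter dropped. BRD7, a bromodomain subunit of PBAF, had 47.1 and 42.6 in the pools in both of its rows, against 73.4 in the vector library in NM_013263 and 40.0 in NM_001173984. Of 15 SWI/SNF genes with 2 or more distinct rows, all above 0 in the 3 libraries, 5 had rows at least 1.5 times apart in the vector library (ARID1A, DPF1, BRD7, SS18 and BCL7A), 0 in pool 1 and 0 in pool 2. Of the 1404 genes in the whole table with row pairs above 10 and alike to within 5% in both pools, 437 reached that factor in the vector library. The 15 genes were not held to that likeness.

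Remodellers outside SWI/SNF gave similar medians. Of 11 ISWI genes none passed the test, 8 were higher and 2 lower in both pools, and the median log2 fold was 0.34. Of 16 tested CHD and NuRD genes none passed, 10 were higher and 2 lower in both pools, and the median was 0.23. At an unadjusted p of 0.05, 0 ISWI and 0 CHD and NuRD genes passed limma. So did 2 INO80 and SRCAP genes, 3 of the other SWI/SNF subunits and 33.2% of all tested genes. At the adjusted p of 0.05, 22.7% of all tested genes passed (1.00% higher and 21.7% lower in the pools). Of 17 INO80 and SRCAP genes 1 fell, 9 were higher and 3 lower in both pools, and the median was 0.27. The gene that fell was ACTR5, an actin-related INO80 subunit that also passed in all 12 alternatives with a test, with 5.57 and 5.98 in the pools, against 73.1 in the vector library (log2 fold -3.45, SE 0.28, limma adjusted p = 0.0224). The remodeller medians, from 0.17 to 0.43, were not tested against each other.

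**Figure D5:**
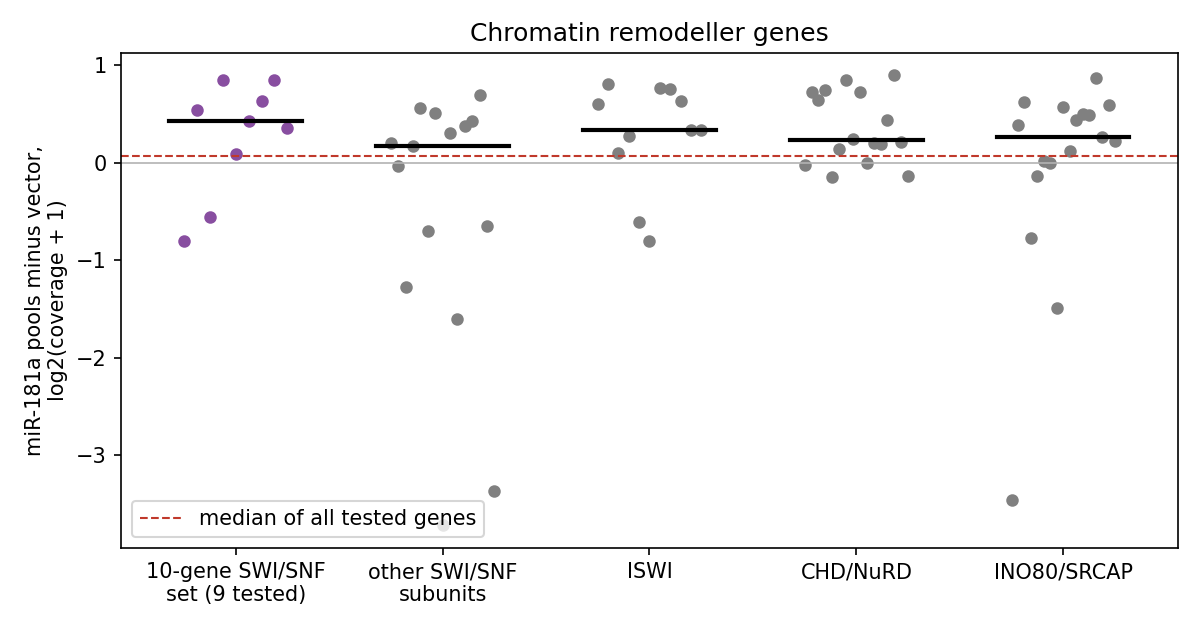
Log2 fold (pools minus vector) of each tested gene, with black bars for the list medians and a dashed line for the median of all tested genes, 0.07. The medians of the 5 lists lie between 0.17 and 0.43, and the lowest points are DPF1, ACTR5 and SS18L1.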

How the data were processed

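Poly-A RNA of 3 A2780 libraries was sequenced. Per the labels' protocols, the authors aligned reads to hg19, profiled read density along each gene with a sliding window (50 bp) and took the profile's median as the gene's coverage signal. A correction by logs and quantiles is named there as well, although the deposited coverage is linear and has unequal quantiles in the 3 columns. The aligner is not given in the sources used here. Rows with no vector value (308) were left out, which leaves 28848, and of 54 rows with symbols turned into dates 52 were restored by accession and 2 kept their date with the accession added. Each gene was represented by its row of highest mean. Where the rows of a gene are equal in the pools, this is the row with the highest vector value. After genes at 0 throughout were set aside, the lowest 25% by mean (up to 2.44) were dropped and the other 12552 tested with limma 3.58.1 in R 4.3.3 on log2(coverage + 1), pools against vector, using eBayes and a variance trend. Folds are on this scale, which understates the change of low genes. The fit was tested on simulated data in which all 3 libraries were drawn around the mean of the pools. The offset between the pools and the values of the vector library were thus left out of that simulation. UTRs are from GENCODE on GRCh37, with 98.2% of tested genes matched.

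The members and lists were chosen with earlier results of these data known. The text names every member, in each list the genes past the test and examples from the up to 4 largest shared folds, SMAD7, and the 3 genes nearest to ARID1A. BRD7 and SS18 were named after their rows were seen. Alternatives covered the filter, pseudocount, choice of row, scaling, variance model, unit of the fit, size threshold and each pool left out.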

Additional observations from a re-analysis of the deposited data

How the results depend on the processing

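The count of members past limma moved most with the scaling, and the direction of ARID1A turned with the row used and with no scaling tried. The count of members past limma was 0 as deposited and with a filter at the median, and without a filter SMARCA2 passed (1 member, adjusted p = 6.65e-05, through its vector value alone). It was 7 with library medians set equal, 3 with the shift by genes above 50 (0.55 and 0.21 log2 units off pools 1 and 2) and 5 with quantile normalization. Over all tested genes, 126 rose and 2725 fell as deposited, 6355 rose and 3701 fell with medians set equal, 1039 and 5390 with the shift, and 5641 and 3338 with quantile normalization. The median log2 fold of all tested genes was 0.07 as deposited, 0.49 with medians set equal, -0.31 with the shift and 0.48 with quantile normalization. The choice of row moved these values too. With the row chosen by the pools, 138 of 12326 tested genes rose and 2319 fell, and the median log2 fold was 0.18. With the lowest row, 144 of 12049 rose and 2031 fell, and the median was 0.25. Members past the size rule numbered 2 with a threshold of 0.5, 1 without a filter, 2 with medians set equal and 3 with quantile normalization. Apart from the threshold of 0.5, the shares of all genes past the rule were not computed for these settings. The members' median was 0.85 with medians set equal and 0.049 with the shift. It was 0.28 and 0.62 with 1 pool left out. The median of the other subunits was 0.59 with medians set equal and turned to -0.21 with the shift, and was -0.17 and 0.39 with 1 pool left out. Other subunits past limma numbered 4 without a filter, 1 with the row chosen by the pools, 1 with the lowest row, 12 with medians set equal, 6 with the shift, 8 with quantile normalization and 1 without a variance trend. Without a filter, 278 of all 16737 tested genes rose and 5626 fell. ARID1A turned to 0.71 with the row chosen by the pools or the lowest row, and SMARCA4 to -0.29 and SMARCE1 to -0.027 with the shift. SMARCA4 was -0.11 without pool 1 and 0.29 without pool 2. With the shift, ARID1A (-1.18) and ARID2 (-0.94) passed downward and SMARCC2 (0.46) upward, and the member rows lower in both pools numbered 11 instead of 4. The shift lowers the pool values of every row, and the share of all rows lower in both pools under it was not computed. With the mean of rows, the vector shares were 60.5% for ARID1A, 35.3% for ARID2 and 97.0% for SMARCA4. The cause of these differences was not tested. A filter on the pools alone was chosen after seeing the data, and no member passed under it. With 1 pool left out there is no residual degree of freedom, so these values have no test. No paired analysis was possible because there is only 1 vector library for the 2 miR-181a libraries.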
